A study of Rattus norvegicus with 24 samples.

Results

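The genes of the mitochondrial respiratory chain were compared in left kidney RNA of 3 rat strains on raised dietary salt. Members were chosen by name: every probe set whose single gene symbol in the platform annotation begins with Nduf, Sdha, Sdhb, Sdhc, Sdhd, Uqcr, Uqcc, Cox followed by a number, or Atp5. This gave 104 genes and 124 probe sets, of 13811 genes and 31142 probe sets on both arrays, with 109 of the 124 on the Affymetrix array RAE230A and 15 on RAE230B. Of the 124, 113 probe sets for 100 genes were bright enough to be tested.

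The rats were males of the congenic substrains ET3x2 and ET3x1, both on the S background, and of the inbred Dahl salt-sensitive strain SS/jr, called S. A congenic substrain carries a chromosome segment of a donor strain on the background of another strain, here S, so that all 3 strains share most of their genome. All rats ate a 0.4% NaCl diet up to 39 to 41 days of age, then a 2% NaCl diet for 28 days, and were 67 to 69 days old at the end. RNA was pooled from 3 rats per pool in ET3x2 (pools I, J, K and L), from 3 rats per pool in ET3x1 (pools E, F, G and H) and from 2 rats per pool in S (pools A, B, C and D). With 1 array of either type for every pool there were 24 arrays from 12 pools and 32 rats, and a pool counts as a replicate. The values are log2 signals. The number of arrays limits the precision, and a fold change between strains is a difference of log2 signals of the same probe set. In whole kidney RNA, fewer cells of a type and less RNA per cell cannot be told apart.

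The respiratory chain passes electrons from NADH and succinate to oxygen and uses the released energy to pump protons, and ATP synthase lets the protons back to make ATP. Complex I (Nduf genes) takes electrons from NADH, complex II (Sdh genes) from succinate, complex III (Uqcr genes) passes them to cytochrome c, complex IV (Cox genes) passes them to oxygen, and complex V (Atp5 genes) is ATP synthase. Assembly factors, such as those of the Ndufaf, Uqcc and Sdhaf families and Cox10 to Cox20, build the complexes without being part of them. Kidney tubules, above all the proximal tubule and the thick ascending limb, are rich in mitochondria because sodium reabsorption consumes ATP.

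A probe set was tested when its mean over the 12 pools was at or above the 30th percentile of its array (7.52 on RAE230A and 6.85 on RAE230B), and called when limma's adjusted p was under 0.05. The 11 probe sets that were not tested were the only ones of Cox6a2, Cox6b2, Cox8b and Ndufa4l2, and single or paired probe sets of Cox11, Sdhaf2, Ndufa9, Ndufv3 and Atp5if1. Cox6a2 and Cox8b are heart and skeletal muscle forms and Cox6b2 is the testis form of complex IV subunits whose general forms Cox6a1, Cox6b1 and Cox8a were all tested, and Ndufa4l2 is a relative of Ndufa4 known to be induced by low oxygen. The tested members fell into 6 probe sets of complex I core subunits, 30 of complex I accessory subunits, 5 of complex II, 8 of complex III, 14 of complex IV, 19 of complex V and 31 of assembly factors. Ndufa4, once counted with complex I, was placed in complex IV.

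Most member signals were higher in both congenic strains than in S, by small amounts, and 1 of them passed the test. In ET3x1 against S, 96 of 113 member probe sets had a log2 fold change above 0 (85.0%, against 48.4% of all tested probe sets), with a median of 0.14 against −0.0047 over all 21799 tested. In ET3x2 against S, 99 of 113 were above 0 (87.6%, against 59.0% of all tested), with a median of 0.15 against 0.025. Between the congenic strains, 56 of 113 were higher in ET3x2 than in ET3x1 (49.6%, against 60.8% of all tested), with a median of −0.00020 against 0.032. Both comparisons with S use the same 4 S pools. The highest member fold change was 0.51, that of Uqcc6 in ET3x2 against S.

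By limma's test with Benjamini-Hochberg adjustment, 0 of 113 members were called in ET3x1 against S, where 0.44% of all tested probe sets were (0.431% higher and 0.00917% lower). At an unadjusted p under 0.05, 30 members were higher in ET3x1 (26.5%, against 7.44% of all tested) and 1 was lower (against 4.41% of all tested). In ET3x2 against S, 1 member was called, and it was higher (0.344% of all tested were called, 0.0642% higher and 0.28% lower). There, 25 were higher (22.1%, against 6.89%) and 0 lower (against 3.98%) at an unadjusted p under 0.05. In ET3x2 against ET3x1, 0 members were called, against 1.48% of all tested (0.0963% higher and 1.39% lower), and 6 were higher (5.31%, against 6.71%) and 0 lower (against 6.39%) at an unadjusted p under 0.05.

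**Figure D1:**
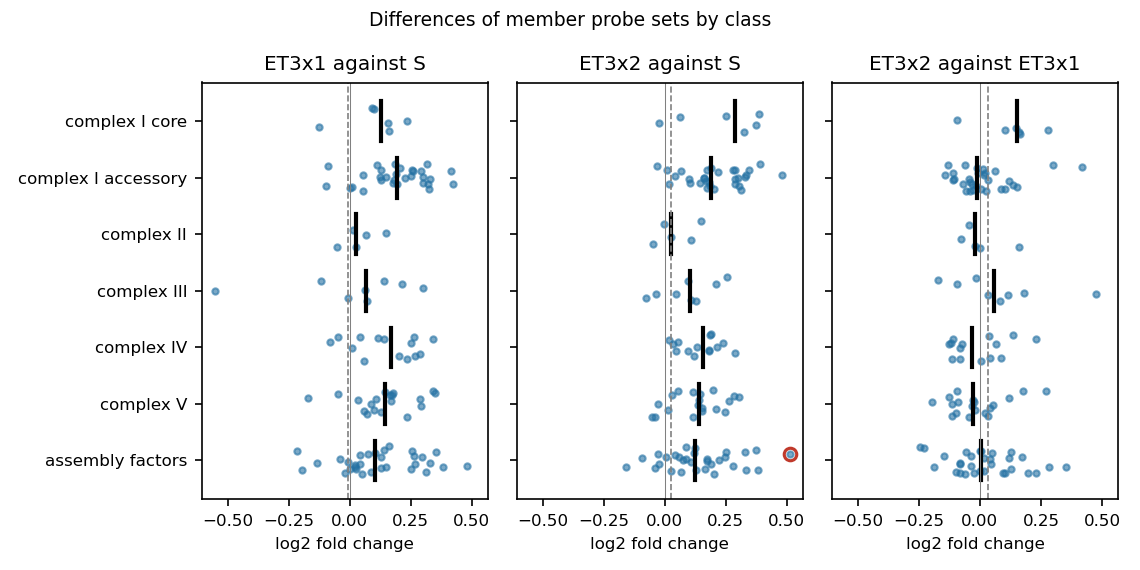
Log2 fold change (x axis) of each tested member probe set (dots) by class, with a panel each for ET3x1 against S (left), ET3x2 against S (middle) and ET3x2 against ET3x1 (right). Black bars are class medians, the dashed line is the median of all 21799 tested probe sets, the solid line is 0, vertical scatter within a class carries no value, and the red ring marks the 1 called probe set, Uqcc6 at 0.51 in ET3x2 against S.

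How far the members stood above S depended on which pools were read. As the mean difference of the 113 probe sets from their own 12-pool mean (log2), the ET3x2 pools I, J, K and L stood at 0.12, −0.11, 0.060 and 0.15. The ET3x1 pools E, F, G and H stood at 0.0065, 0.11, 0.020 and 0.015, and the S pools A, B, C and D at −0.14, −0.24, 0.031 and −0.035. Pools J, A and B were thus the lowest of the 12, with 85, 91 and 99 of 113 probe sets below their own mean, while S pools C and D lay within or near the range of the ET3x1 pools. They were also the lowest in complex I accessory, complex IV and complex V subunits, but not in the other classes. Pool J stood at 0.023 in complex I core and 0.0080 in complex III, and A at 0.050 in complex II. Among assembly factors D stood at −0.12, below A at −0.055. Over all tested probe sets pool J stood at 0.0056, A at 0.019 and B at 0.0056. Farther from 0 by that measure were D at −0.066, G at −0.045 and F at 0.053, and the rest ran from −0.012 to 0.014. The member values of D, F and G thus include a shift shared with all probe sets.

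The same 3 pools also stood apart in the actin RNA control. The signal of the actin 5' control probe set minus that of its 3' probe set, which is higher where RNA or cDNA is more complete at the 5' end, was −1.14 in ET3x2 pool J and −1.27 in S pools A and B on RAE230A, against −2.10 to −1.66 in the other 9 pools. On RAE230B it was −1.07 in J, −1.39 in A and −1.28 in B, against −2.11 to −1.52. The same difference for the Gapdh control was highest in J on both arrays (−0.643 on RAE230A and −0.607 on RAE230B), while A and B (−0.807 and −0.747 on RAE230A, −0.870 and −0.901 on RAE230B) lay within the range of the other 9 pools. The part of this difference in the members' signals was not tested. Without pools A, B and J, a choice made with earlier results known, which leaves 3 ET3x2, 4 ET3x1 and 2 S pools, the median log2 fold change of the members was 0.043 in ET3x1 against S (73 of 113 above 0, with an all-probe-set median of 0.011) and 0.10 in ET3x2 against S (88 of 113, with 0.043). In ET3x2 against ET3x1 it was then 0.068 (84 of 113, with 0.036).

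**Figure D2:**
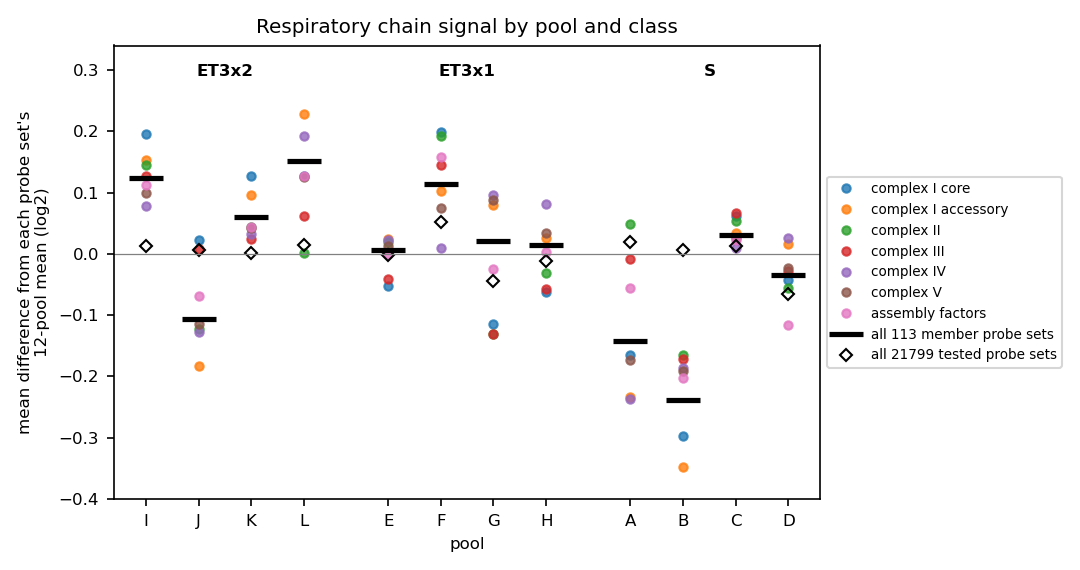
Mean difference of the probe sets of each class from their own 12-pool mean (y axis, log2) in every pool (x axis), for ET3x2 pools I to L, ET3x1 pools E to H and S pools A to D. Coloured points are classes, black bars all 113 members and open diamonds all 21799 tested probe sets; the bars of pools J, A and B lie lowest, at −0.11, −0.14 and −0.24, while their diamonds lie near 0.

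**Figure D3:**
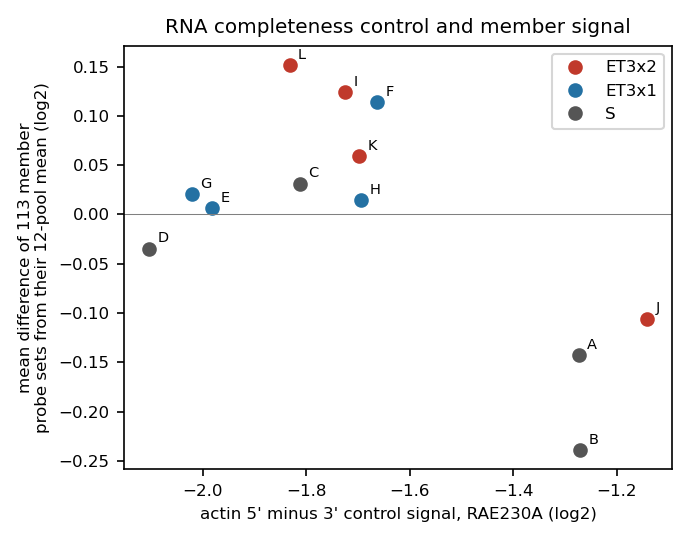
Mean difference of the 113 members from their 12-pool mean (y axis, log2) against the actin 5' minus 3' control signal on RAE230A (x axis, log2), 1 point per pool. Pools J, A and B lie to the right of −1.3 and below 0 on the y axis, and the other 9 pools lie to the left of −1.6.

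Of 7 lists of cell type markers, that of leukocytes had every congenic pool above every S pool. Its markers (5 of 8 listed genes tested, 6 probe sets) had a mean difference from their 12-pool mean of −0.010 to 0.22 in the ET3x2 pools and −0.027 to 0.32 in the ET3x1 pools, against −0.31 to −0.19 in the S pools. The calls in that list were all of 1 gene, the immunoglobulin joining chain gene Jchain, whose probe sets were at 1.72 and 0.50 in ET3x1 against S (adjusted p = 0.000516 and 0.0104) and at 1.21 and 0.35 in ET3x2 against S (adjusted p = 0.0113 and 0.0880, the second not called). The Jchain differences were the largest in the list, so that the list mean leans on 1 gene. At limma's unadjusted p under 0.05, 4 of the 6 probe sets were higher in ET3x2 against S (66.7%, against 6.89% of all tested). In ET3x1 against S, 2 were higher (33.3%, against 7.44%). Whether congenic and S pools stay apart without Jchain was not tested. The list's T cell markers Cd3e and Cd3g and macrophage marker Cd68 were at 0.067, 0.19 and 0.15 in ET3x1 against S and 0.23, 0.29 and 0.15 for ET3x2 against S, and Lyz2, of myeloid cells, was at 0.046 and −0.093, none called. The part of leukocytes in the members' signals was not tested. The collecting duct list held 1 called gene, Atp6v1b1, a proton pump subunit, at 0.33 in ET3x1 against S (adjusted p = 0.0483), while only 3 of its 10 probe sets were above 0 in that comparison (median −0.14). All 10 proximal tubule marker genes were tested, with medians over 14 probe sets of 0.018 in ET3x1 against S, 0.076 for ET3x2 against S and 0.058 in ET3x2 against ET3x1, and 0 called. The list of thick ascending limb and distal tubule (6 probe sets) had medians of −0.0007, −0.032 and −0.057 in the same order, and 0 called.

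Uqcc6 was the called member, an assembly factor known from human cells and zebrafish to be needed for complex III. Its RAE230B probe set 1382763_at read 9.35, 9.04, 9.34 and 9.25 in ET3x2 pools I to L, 8.94, 9.28, 9.08 and 9.16 in ET3x1 pools E to H, and 8.64, 8.57, 8.94 and 8.77 in S pools A to D. Every ET3x2 pool lay above every S pool, and ET3x1 pool E lay just above S pool C, both at 8.94 when rounded. It rose in ET3x2 by 0.51 over S (log2, SE 0.097, 1.43-fold, n = 4 pools each, adjusted p = 0.0362). The difference in ET3x1 against S was 0.38 (SE 0.097, adjusted p = 0.121), and that between ET3x2 and ET3x1 was 0.13 (SE 0.097, adjusted p = 0.643). The call ended without any 1 of the pools A (adjusted p = 0.132), B (0.105), H (0.0508), I (0.135), K (0.168) or L (0.0976). Pool H is an ET3x1 pool and enters this difference only through the shared spread. The call also ended without A, B and J together, where the log2 fold change was 0.45 (adjusted p = 0.152). With only the 2 strains compared in the fit it ended as well (0.51, adjusted p = 0.0725).

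Among the other complex III factors, Uqcc2, which in human cells works with Uqcc1 on newly made cytochrome b, had ET3x2 pools apart from those of both other strains. Uqcc2 (1389033_at) read 10.26, 10.13, 10.38 and 10.39 in ET3x2 pools I to L, 9.87, 10.00, 9.94 and 9.95 in ET3x1 pools E to H, and 9.95, 9.68, 9.92 and 10.09 in S pools A to D. All ET3x2 pools lay above the rest, while ET3x1 and S pools overlapped. The difference of ET3x2 from ET3x1 was 0.35 (SE 0.092, adjusted p = 0.0867) and from S 0.38 (SE 0.092, adjusted p = 0.141), so that neither passed. Without pools A, B and J the difference from ET3x1 was 0.41 and passed (adjusted p = 0.0387). Pools A and B are S pools and enter this difference only through the shared spread. Without J alone it was the same 0.41 and did not pass (adjusted p = 0.0752). With any 1 pool left out it did not pass, the adjusted p running from 0.0563 to 0.257. Uqcc5 averaged 8.92 ± 0.13 in ET3x2, 8.90 ± 0.052 in ET3x1 and 8.59 ± 0.27 in S (SD, n = 4 pools), and Uqcc1, by its brighter probe set 1374179_at, 9.70 ± 0.13, 9.76 ± 0.062 and 9.80 ± 0.077 in the same order of strains. Uqcc4 was read by 1 probe set name placed on both arrays, with 0.13 on RAE230A and 0.073 on RAE230B in ET3x2 against S, and 0.13 and 0.022 in ET3x1 against S.

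**Figure D4:**
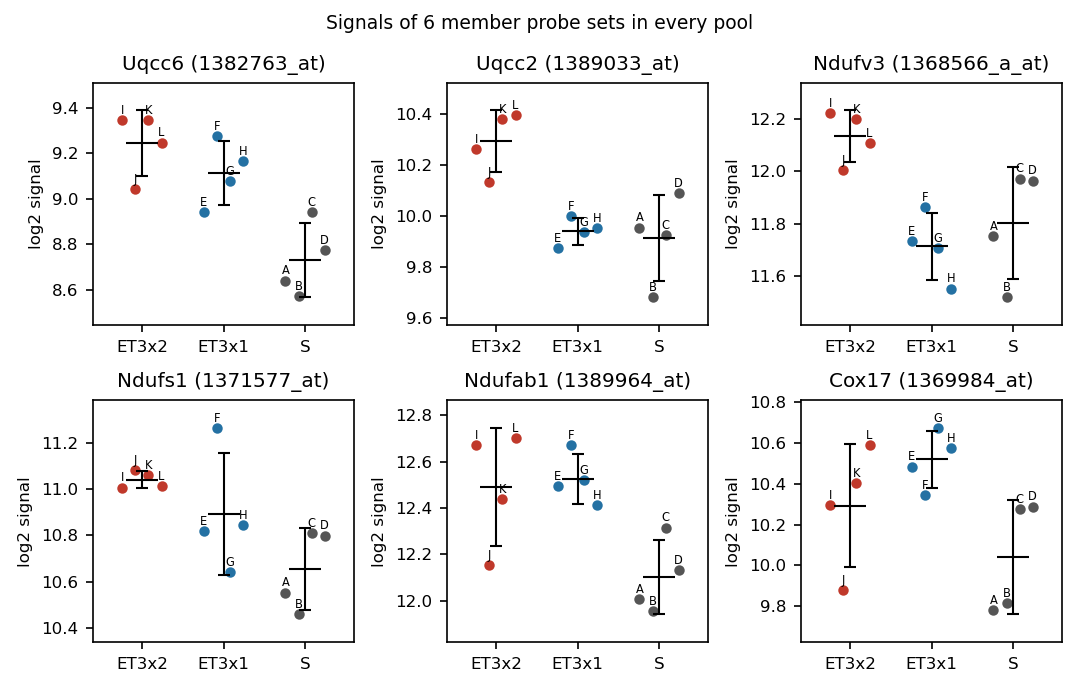
Log2 signal (y axis) of 6 member probe sets in every pool, for ET3x2, ET3x1 and S from left to right. Points are pools with their letters and bars are the mean ± SD of 4 pools; for Uqcc2 and Ndufv3 the 4 ET3x2 points lie above the 4 ET3x1 points, and for Ndufab1 and Cox17 the 4 ET3x1 points lie above the 4 S points.

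Complex I accessory subunits were higher than S by medians of 0.19 in both congenic strains. Ndufab1, the mitochondrial acyl carrier protein, read 12.67, 12.15, 12.44 and 12.70 in ET3x2 pools I to L, 12.49, 12.67, 12.52 and 12.41 in ET3x1 pools E to H, and 12.01, 11.95, 12.31 and 12.13 in S pools A to D. The ET3x1 and S pools did not overlap, whereas ET3x2 pool J lay among the S pools. The difference was 0.42 in ET3x1 against S (SE 0.12, adjusted p = 0.179) and 0.39 in ET3x2 against S (adjusted p = 0.223). Ndufb1, a small subunit of the membrane arm, read 12.54, 12.32, 12.65 and 12.82 in ET3x2, 12.67, 12.52, 12.77 and 12.65 in ET3x1, and 12.11, 12.12, 12.39 and 12.34 in S. Here too ET3x1 and S did not overlap and pool J was the lowest ET3x2 pool, and the differences from S were 0.41 in ET3x1 (SE 0.10, adjusted p = 0.152) and 0.35 in ET3x2 (adjusted p = 0.223).

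Ndufv3, an accessory subunit of the NADH-oxidising module, had the smallest adjusted p among members in ET3x2 against ET3x1. Its probe set 1368566_a_at read 12.22, 12.01, 12.20 and 12.11 in ET3x2 pools I to L, 11.73, 11.86, 11.71 and 11.55 in ET3x1 pools E to H, and 11.75, 11.52, 11.97 and 11.96 in S pools A to D. The ET3x2 pools lay above all ET3x1 and all S pools. The difference from ET3x1 was 0.42 (SE 0.10, 1.34-fold, adjusted p = 0.0754) and that from S 0.33 (adjusted p = 0.255). The first of these passed without pool B (0.42, adjusted p = 0.0422), without pool F (0.47, 0.0431), without A, B and J (0.46, 0.0198), and with only the 2 strains compared in the fit (0.42, 0.036). Pools A and B are S pools and enter this difference only through the shared spread. Without J alone the difference was 0.46 and did not pass (adjusted p = 0.0811). Its adjusted p was 0.175 to 0.227 without E, G, H, I or K, with the difference between 0.36 and 0.43. A second Ndufv3 probe set was too dim to be tested.

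Ndufa11, which helps to hold the membrane arm together, had the highest fold change of the class in ET3x2 against S, 0.48 (SE 0.12, adjusted p = 0.160). It read 12.04, 11.63, 11.91 and 11.92 in ET3x2, 11.47, 11.82, 11.50 and 11.52 in ET3x1, and 11.26, 11.14, 11.65 and 11.52 in S. Pool J again lay lowest in ET3x2, just below S pool C. Over the 30 accessory probe sets, 28 were above 0 in ET3x1 against S (median 0.19) and 29 in ET3x2 against S (median 0.19), while 14 were above 0 in ET3x2 against ET3x1 (−0.011). Without A, B and J the medians were 0.031, 0.11 and 0.082. At the low end, Ndufa9, at the junction of the arms, was at −0.097 in ET3x1 against S and 0.040 in ET3x2 against S, Ndufb3 at −0.031 in ET3x2 against S, and Ndufs6 at 0.0090.

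The complex I core subunits include those that carry the flavin and iron-sulfur clusters. Their median was 0.29 in ET3x2 against S, the highest class median, and 0.13 in ET3x1 against S. In ET3x2 against ET3x1 it was 0.15, with 5 of 6 above 0. Ndufs1, the largest iron-sulfur subunit, read 11.01, 11.08, 11.06 and 11.01 in ET3x2, 10.82, 11.26, 10.64 and 10.84 in ET3x1, and 10.55, 10.46, 10.81 and 10.80 in S. ET3x2 pools lay within 0.1 of each other and above all S pools, with a difference from S of 0.39 (SE 0.12, adjusted p = 0.242). Ndufs8, which holds iron-sulfur clusters next to the membrane arm, differed by 0.38 from S (SE 0.10, adjusted p = 0.186) and by 0.28 from ET3x1 (adjusted p = 0.210) in ET3x2. Ndufv1, the NADH-binding subunit, was at −0.022 in ET3x2 against S and −0.13 in ET3x1 against S, neither passing. Without A, B and J the core median was −0.031 in ET3x1 against S and 0.20 in ET3x2 against S.

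Complex II stood near 0 in all comparisons, with medians over 5 probe sets of 0.026 in ET3x1 against S, 0.024 for ET3x2 against S and −0.019 in ET3x2 against ET3x1. Sdha, the flavoprotein that oxidises succinate, read 12.85, 12.72, 12.70 and 12.91 in ET3x2, 12.91, 13.05, 12.74 and 12.80 in ET3x1, and 13.01, 12.76, 12.87 and 12.75 in S, with the strains overlapping throughout. Sdhb, the iron-sulfur subunit, averaged 13.48 ± 0.16 in ET3x2, 13.48 ± 0.063 in ET3x1 and 13.33 ± 0.15 in S (SD, n = 4), a difference from S of 0.15 in each (adjusted p = 0.539 in ET3x2 and 0.477 in ET3x1). Sdhc was at 0.024 in ET3x2 against S and 0.067 in ET3x1 against S. The probe sets of Sdhd gave −0.0040 and 0.11 in ET3x2 against S, and 0.015 and −0.051 in ET3x1 against S. Of the assembly factors of complex II, Sdhaf1 was at −0.0070, Sdhaf2 at 0.14, Sdhaf3 at 0.30 and Sdhaf4 at 0.36 in ET3x1 against S, none passing (adjusted p = 0.251 for Sdhaf3 and 0.305 for Sdhaf4).

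Complex III subunits had medians over 8 probe sets of 0.069 in ET3x1 against S, 0.10 for ET3x2 against S and 0.057 in ET3x2 against ET3x1. Uqcr11, a small subunit, read 12.72, 12.52, 12.75 and 12.99 in ET3x2, 12.77, 12.95, 12.88 and 12.76 in ET3x1, and 12.48, 12.30, 12.71 and 12.66 in S. All ET3x1 pools lay above all S pools, by 0.30 on average (SE 0.11, adjusted p = 0.267), and ET3x2 overlapped both. Uqcrq, which binds close to cytochrome b, was at 0.25 in ET3x2 against S (adjusted p = 0.279). The 2 core proteins were closer to 0: Uqcrc1 was at 0.11 in ET3x2 against S and −0.0070 in ET3x1 against S, and Uqcrc2 at −0.035 and −0.12 by its brighter probe set. A second Uqcrc2 probe set, 1382280_at, had the widest spread among members, with 9.90, 10.37, 9.64 and 9.16 in ET3x2, 9.37, 9.88, 8.73 and 9.18 in ET3x1, and 10.35, 9.92, 9.81 and 9.29 in S. Its difference of −0.55 in ET3x1 against S was the lowest of all members and did not pass (adjusted p = 0.537). The Rieske protein gene Uqcrfs1 was at 0.097 in ET3x2 against S and 0.065 in ET3x1 against S.

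In complex IV, all 14 probe sets were above 0 in ET3x2 against S (median 0.16) and 12 in ET3x1 against S (0.17). Cox5a, a nuclear-encoded subunit on the matrix side, read 9.38, 9.39, 9.18 and 9.47 in ET3x2, 9.32, 9.73, 9.51 and 9.38 in ET3x1, and 8.84, 9.21, 9.17 and 9.37 in S. It had the highest fold change of the class in ET3x1 against S, 0.34 (SE 0.12, adjusted p = 0.258), with pools of ET3x1 and S overlapping. Cox6b1 read 13.03, 12.56, 13.02 and 13.12 in ET3x2, 12.99, 13.03, 13.02 and 13.02 in ET3x1, and 12.69, 12.43, 12.98 and 12.89 in S, where ET3x1 lay just above S pool C and well above A and B (0.27, adjusted p = 0.376). Cox7b averaged 13.60 ± 0.25 in ET3x2 and 13.37 ± 0.062 in ET3x1 (SD, n = 4), and spread more widely in S, with 12.91 and 13.20 in A and B and 13.68 and 13.65 in C and D. Its difference of ET3x2 from ET3x1 was 0.23 (adjusted p = 0.504), and 0.34 without A, B and J (adjusted p = 0.0481). Of these pools only J is part of that difference, while A and B enter the shared spread alone.

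Of the tissue forms of complex IV subunits, Cox4i1, the general form, averaged 13.90 ± 0.15 in ET3x2, 13.98 ± 0.042 in ET3x1 and 13.86 ± 0.16 in S, and Cox4i2, known as the lung form, 8.40 ± 0.078, 8.26 ± 0.20 and 8.34 ± 0.13 in the same order (SD, n = 4). Neither differed beyond this spread. Cox7a1, the muscle form, averaged 8.05 ± 0.043 in ET3x2, 7.99 ± 0.086 in ET3x1 and 8.04 ± 0.078 in S. Cox6a1 was at 0.18 and Cox8a at 0.095 in ET3x2 against S, neither passing. Cox6c was at 0.12 in ET3x2 against S and 0.24 in ET3x1 against S, and the probe set of its pseudogene Cox6c-ps1 at 0.19 and 0.27. Probes of such near-identical copies may share target, so that these are not separate measurements with certainty. COX1 and COX2, mitochondrially encoded subunits that the name rule leaves out, were at 0.077 and 0.021 in ET3x2 against S and 0.097 and 0.023 in ET3x1 against S, none passing.

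Complex V had medians over 19 probe sets of 0.15 in ET3x1 against S, 0.14 for ET3x2 against S and −0.028 in ET3x2 against ET3x1. The alpha and beta subunits of its catalytic head were below 0 against S. Atp5f1a, the alpha subunit, read 14.10, 14.06, 13.88 and 13.90 in ET3x2, 13.87, 14.01, 13.79 and 13.80 in ET3x1, and 14.11, 14.05, 13.98 and 14.00 in S. At −0.17 in ET3x1 against S it was the 1 member lower at an unadjusted p under 0.05, and it did not pass (adjusted p = 0.325). Atp5f1b, the beta subunit, was at −0.047 in ET3x1 against S and −0.026 in ET3x2 against S. Atp5pf, coupling factor 6 of the peripheral stalk, read 13.12, 12.71, 13.05 and 13.20 in ET3x2, 13.09, 13.24, 13.26 and 13.28 in ET3x1, and 12.72, 12.68, 13.04 and 13.03 in S. The ET3x1 pools lay above all S pools, by 0.35 (SE 0.11, adjusted p = 0.229).

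Atp5f1d, the delta subunit of the central stalk, was higher in all ET3x2 pools than in any S pool, with 12.99, 12.76, 12.94 and 12.74 in ET3x2, 12.60, 12.78, 12.52 and 12.45 in ET3x1, and 12.54, 12.38, 12.71 and 12.59 in S. The difference was 0.30 from S (SE 0.094, adjusted p = 0.237) and 0.27 from ET3x1 (adjusted p = 0.193). Atp5if1, the inhibitor that stops ATP hydrolysis, read 11.39, 10.72, 11.28 and 11.62 in ET3x2, 11.27, 11.34, 11.37 and 11.40 in ET3x1, and 10.88, 10.73, 11.31 and 11.10 in S. Pools J and B lay within 0.01 of each other, and the differences from S were 0.25 in ET3x2 (adjusted p = 0.587) and 0.34 in ET3x1 (adjusted p = 0.376).

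Of the 31 probe sets of assembly factors, 25 were above 0 in ET3x1 against S, 26 for ET3x2 against S and 17 in ET3x2 against ET3x1. Cox17, the copper chaperone of complex IV, had the highest member fold change in ET3x1 against S, 0.48 (SE 0.15, adjusted p = 0.229). It read 10.30, 9.88, 10.40 and 10.59 in ET3x2, 10.48, 10.35, 10.67 and 10.58 in ET3x1, and 9.78, 9.82, 10.28 and 10.29 in S, with ET3x1 above all S pools but close to C and D. Cox20, a factor for subunit 2, was at 0.25 in ET3x2 against S (SE 0.084, adjusted p = 0.287) without overlap, and Ndufaf1, an early complex I factor, at 0.28 (SE 0.069, adjusted p = 0.133), also without overlap. Ndufaf4 ran the other way, at −0.16 in ET3x2 against S and −0.25 in ET3x2 against ET3x1 (adjusted p = 0.655 and 0.351).

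Pools of 2 strains lay fully apart, with the congenic strain higher, for 14 members in ET3x1 against S (12.4%, against 4.41% of all tested) and 7 in ET3x2 against S (6.19%, against 3.87%). In ET3x2 against ET3x1 ET3x2 lay fully above for 2 (1.77%, against 4.96%), Uqcc2 and Ndufv3. Members lying fully lower numbered 0 in each comparison, against 1.99%, 2.09% and 4.18% of all tested. The 3 largest of the 14 were Cox17, Ndufab1 and Ndufb1, and the 3 largest of the 7 were Uqcc6, Ndufs1 and Uqcc2. In 12 genes with several tested probe sets, these differed in sign or call for 3 genes in ET3x1 against S, 5 for ET3x2 against S and 6 in ET3x2 against ET3x1.

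**Figure D5:**
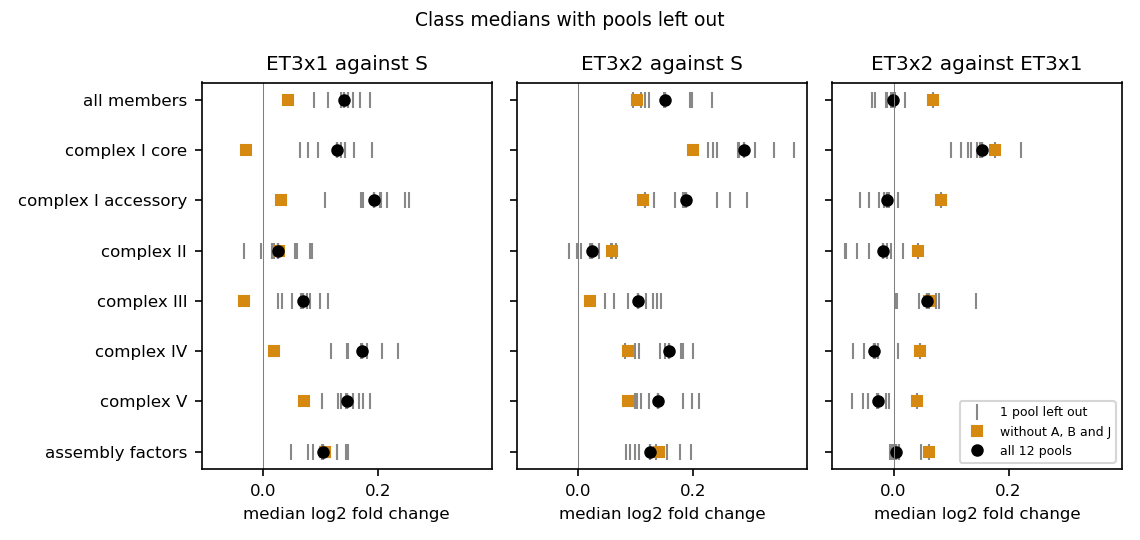
Median log2 fold change (x axis) of all members and of each class in the 3 comparisons, with all 12 pools (black), with each pool left out in turn (grey ticks) and without pools A, B and J (orange). In ET3x1 against S the orange points of complex I core (−0.031) and complex III (−0.034) lie below 0, and in ET3x2 against S all class medians without A, B and J lie above 0.

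Other sets of abundant housekeeping genes were read the same way. Cytosolic ribosomal proteins (53 probe sets) had medians of 0.082 in ET3x1 against S, 0.073 for ET3x2 against S and −0.051 in ET3x2 against ET3x1, and proteasome subunits (61 probe sets) 0.035, 0.041 and 0.023, with 0 called in each. In pools J, A and B the ribosomal proteins stood at −0.13, −0.070 and −0.13 from their 12-pool mean, and the proteasome subunits at −0.080, −0.0023 and −0.13. Whether the respiratory chain differed from these sets was not tested.

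Genes that regulate or surround the respiratory chain, from lists written with earlier results known, gave few calls. Of 14 tested genes for mitochondrial biogenesis (18 probe sets), 0 were called against S, with medians of −0.014 in ET3x1 and −0.041 in ET3x2. Ppargc1b, a coactivator of mitochondrial genes, was called between the congenic strains. It read 8.67, 8.67, 8.77 and 8.67 in ET3x2, 9.30, 9.02, 9.25 and 8.99 in ET3x1, and 8.85, 8.86, 8.89 and 8.63 in S, and fell by 0.45 in ET3x2 against ET3x1 (SE 0.081, adjusted p = 0.0103). All ET3x2 pools lay below all ET3x1 pools, ET3x2 overlapped S, and all ET3x1 pools lay above all S pools without passing (0.33, adjusted p = 0.0991). The related coactivator Ppargc1a was at −0.075 and −0.20 by its 2 probe sets in ET3x2 against S, Tfam, which packs and transcribes mitochondrial DNA, at −0.19, and Nrf1, a transcription factor for respiratory genes, at −0.13, none passing. In ET3x1 against S, Ppargc1a was at −0.026 and −0.17, Tfam at −0.057 and Nrf1 at −0.17.

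Assembly factors outside the name rule (30 genes, 36 probe sets) were above 0 in 34 of 36 in ET3x2 against S (94.4%, against 59.0% of all tested, median 0.14). In ET3x1 against S, 24 of 36 were (66.7%, against 48.4%, median 0.076). Pools A, B and J stood low in this list too, at −0.093, −0.21 and −0.073, as did ET3x1 pool G at −0.073. Of these factors Cmc2, linked to complex IV assembly in yeast, was called, and rose by 0.31 in ET3x2 over ET3x1 (SE 0.069, adjusted p = 0.0432). In that comparison 1.48% of all tested probe sets were called. Electron carriers and citric acid cycle enzymes (15 genes, 19 probe sets) had medians of 0.062 in ET3x2 against S and 0.028 in ET3x1 against S, and mitochondrial carriers and pores (11 genes, 12 probe sets) 0.013 and −0.029, with 0 called. Citrate synthase (Cs), often used as a measure of mitochondrial content, was at 0.062, 0.12 and 0.055 by its 3 probe sets in ET3x2 against S and at −0.31, 0.028 and −0.30 in ET3x1 against S. None of these passed.

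Of the 104 member genes, 8 lay on chromosome 3, with 9 tested probe sets, among them Ndufs3, Ndufa8, Ndufaf1 and Atp5f1e. Their log2 fold changes ran from −0.095 to 0.28 in ET3x2 against S and from −0.080 to 0.17 in ET3x1 against S, with 0 called. Chromosome 3 held 5 called probe sets of 1177 tested in ET3x2 against S, where 75 of all 21799 tested were called (0.344%). In ET3x1 against S it held 9 of 1177, where 96 of 21799 were called (0.44%). Between ET3x2 and ET3x1 it held 24 of 1177, where 323 of 21799 were called (1.48%). Uqcc6 lay on chromosome 7, and Uqcc2 and Ndufv3 both on chromosome 20.

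Promoters of 95 of the 104 members were found in RefSeq, build GRCr8, as 250 bases before and 50 after the gene start. Motifs of factors known to act on respiratory genes were searched on both strands. GCGCANGCG, most of the NRF1 site with 1 open base, was in 27 of 95 (28.4%, against 6.26% of 27457 promoters in the table and 12.5% of 9281 of tested genes). GCGCATGCG, the same letters without an open base and so included in that count, was in 9 (9.47%, against 1.66% and 3.13%). The ETS core CCGGAAG, bound by GABPA among others, was in 30 (31.6%, against 9.22% and 16.9%), the YY1 core AAGATGGCG in 12 (12.6%, against 1.93% and 3.71%), and the ESRRA site TCAAGGTCA in 2 (2.11%, against 0.412% and 0.216%). By class, the open NRF1 form was in 10 of 24 promoters of assembly factors, 6 of 15 of complex V and 8 of 26 of complex I accessory subunits, against 0 of 6 of complex I core and 1 of 14 of complex IV. The match of a motif is a description of the sequence and not a bound site, and it was not set against the strain differences by any test.

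The promoters of 4 members are given: Uqcc6 as the called member, and Uqcc2 and Ndufv3 as those whose ET3x2 pools lay above both other strains. The fourth, Atp5pf, was not called and is given as a gene with non-overlapping ET3x1 and S pools that holds an ETS and a YY1 match. Such matches are not shared by all genes of that kind. The promoters of Cox17, Ndufab1 and Ndufb1, with larger differences and no overlap in ET3x1 against S, held none of the motifs. Capitals mark the matches. Uqcc6 holds the NRF1 form without an open base, and Uqcc2 and Ndufv3 each hold the form with 1 open base. The Uqcc6 match ends before the last letter of the full palindrome, so that a search with that letter added does not find it, while those of Uqcc2 and Ndufv3 go on with it. Atp5pf holds the YY1 match upstream of the ETS match. The sequences are those of RefSeq in GRCr8, 5' to 3' on the strand of the gene.
Uqcc6, chr7:22992323-22992622, plus strand: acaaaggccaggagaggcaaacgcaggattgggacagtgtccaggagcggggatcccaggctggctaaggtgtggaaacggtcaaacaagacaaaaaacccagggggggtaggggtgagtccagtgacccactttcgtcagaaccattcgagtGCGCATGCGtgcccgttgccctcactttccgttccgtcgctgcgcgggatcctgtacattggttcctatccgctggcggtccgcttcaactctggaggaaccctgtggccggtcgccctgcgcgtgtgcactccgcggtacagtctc
Uqcc2, chr20:5216334-5216633, minus strand: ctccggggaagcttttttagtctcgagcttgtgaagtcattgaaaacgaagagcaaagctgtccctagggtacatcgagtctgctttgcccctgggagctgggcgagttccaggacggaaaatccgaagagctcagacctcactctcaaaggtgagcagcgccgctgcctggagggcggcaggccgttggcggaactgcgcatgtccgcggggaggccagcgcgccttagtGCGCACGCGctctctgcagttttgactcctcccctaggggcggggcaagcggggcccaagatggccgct
Ndufv3, chr20:9613536-9613835, plus strand: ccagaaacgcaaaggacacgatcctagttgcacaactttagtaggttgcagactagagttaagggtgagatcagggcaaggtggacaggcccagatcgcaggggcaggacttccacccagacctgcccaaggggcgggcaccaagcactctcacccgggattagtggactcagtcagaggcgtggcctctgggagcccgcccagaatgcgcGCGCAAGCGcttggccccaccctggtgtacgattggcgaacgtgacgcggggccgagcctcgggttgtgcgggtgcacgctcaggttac
Atp5pf, chr11:37375052-37375351, minus strand: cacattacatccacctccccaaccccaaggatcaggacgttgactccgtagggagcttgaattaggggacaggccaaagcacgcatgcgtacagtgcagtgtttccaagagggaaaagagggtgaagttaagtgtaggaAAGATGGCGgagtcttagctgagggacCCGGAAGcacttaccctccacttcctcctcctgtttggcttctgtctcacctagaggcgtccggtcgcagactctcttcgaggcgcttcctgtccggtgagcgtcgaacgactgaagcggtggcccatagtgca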

How the data were processed

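RNA of 12 kidney pools was hybridised to RAE230A and RAE230B, per the labels' protocols. The deposited values, 1 per probe set and pool, were taken as log2 signals from their range and near-equal array medians. Summarisation, background correction and normalisation are not given in the sources used here. Gene names are those of the platform annotation. Without the 57 control probe sets on each array, limma 3.58.1 in R 4.3.3 (lmFit, eBayes with a trended prior) was run on the values as deposited, 1 fit per array. The 3 strains shared 1 spread, and Benjamini-Hochberg adjustment was made per array and contrast. The p-values rest on the spread of pools of 2 or 3 rats, assay included. The fit was tested on simulated data, with noise drawn separately for each probe set and added changes larger than nearly all member differences. Probe sets that move together by pool were not simulated.

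Members, lists and motifs were chosen with earlier results of these data known. Named were called members, the 2 highest and 2 lowest genes per class and contrast (not all are printed), fixed subunits and tissue forms, called list genes, and the 3 largest members without overlap. Others, such as Cox7b, Cox6b1, Uqcc5, Sdhaf3 and Sdhaf4, were added after their values were seen. Alternatives changed the filter, normalisation, array weights, prior, adjustment, strains in the fit, pools, probe sets per gene and symbols. Matplotlib 3.10.9 under Python 3.11.15 drew the figures.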

Additional observations from a re-analysis of the deposited data

Results flagged for a closer look

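In groups of 4 pools, a pool was singled out when its gap to the nearest other pool, divided by the group's range, was above Dixon's 95% critical value. This held in 4 of 96 groups tested, where chance gives about 1 in 20. The mean difference of all members from their 12-pool mean was 0.114 in ET3x1 pool F, with the nearest ET3x1 pool at 0.020, and that of the assembly factors was 0.158 in the same pool, with the nearest at 0.0030. Over all tested probe sets pool F stood at 0.053, so that part of both values is shared with all probe sets. Ndufv1 read 12.29 in ET3x2 pool J, with the nearest ET3x2 pool at 12.10. Cox4i1 read 13.62 in S pool B, with the nearest S pool at 13.92.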

How the results depend on the processing

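No called result changed direction. In ET3x1 against S, 0 members were called in every alternative run. In ET3x2 against S, the count of 1 was 7 with estimated array weights (Ndufa11, Ndufb1, Ndufs1, Ndufs8, Ndufv3, Uqcc2 and Uqcc6; 6.19% of members, against 1.92% of all tested, where all calls numbered 419 in place of 75), 0 with only the 2 strains in the fit and 0 without pools A, B and J. With 1 pool left out it ran from 0 (A, B, H, I, K or L) to 2 (Uqcc6 with Uqcc2 without D, and Uqcc6 with Ndufab1 without J). In ET3x2 against ET3x1, the count of 0 was 6 with array weights (Atp5f1d, Cox20, Ndufa11, Ndufs8, Ndufv3 and Uqcc2; 5.31% of members, against 7.61% of all tested, 1658 calls in place of 323), 1 after quantile normalisation, 1 with only the 2 strains, 3 without A, B and J (Cox7b, Ndufv3 and Uqcc2; 2.65%, against 1.55% of all tested), and 0 to 1 with 1 pool left out (1, Ndufv3, without B or F). Pools A and B are S pools, so that leaving them out changes only the shared spread in ET3x2 against ET3x1. Likewise pool H, of ET3x1, enters ET3x2 against S only through that spread. For Uqcc6 in ET3x2 against S, the log2 fold change lay between 0.45 and 0.58 and the adjusted p between 0.0188 and 0.168. In ET3x1 against S, leaving out A, B and J moved the medians of complex I core to −0.031, complex I accessory to 0.031, complex III to −0.034 and complex IV to 0.019. Medians of all members with 1 pool left out ran from 0.088 to 0.18 in ET3x1 against S, 0.094 to 0.23 in ET3x2 against S and −0.037 to 0.068 in ET3x2 against ET3x1. The cause of these changes was not tested. Fits that leave pools out also hold fewer pools. No paired analysis was possible because the pool letters are not shared between strains. The other 600 values of counts and medians under alternatives stayed within the spread between pools or within 1.5 times the count. For all members the SD between pools was 0.115 in ET3x2, 0.0503 in ET3x1 and 0.119 in S. The SDs of ET3x2 and S come near the medians against S in size, so that staying within the spread says little. Even the fall of the all-member median in ET3x1 against S without A, B and J counted as within it.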
